A study of Mus musculus with 2 samples.

Results

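The transcription factors that build and maintain group 3 innate lymphoid cells (ILC3s) were followed across 5 classes of IL-23 receptor-bearing cells of the mouse small intestine. The 9 genes were Rora, Maf, Gata3, Id2, Tcf7, Tox, Zeb2, Runx3 and Nfil3, out of 32285 genes in the count matrices. They were listed by name, with earlier results of these data known, and all 9 were measured in every comparison. Live eGFP-positive leukocytes were sorted from Il23r-eGFP reporter mice and sequenced with 10x Genomics droplets, as 1 library of cells exposed to recombinant mouse IL-23 for 2 hours and 1 library labelled unstimulated. Both libraries come from the same reporter genotype and the same tissue, freed of Peyer's patches and epithelium. The protocol text of the labels describes stimulation for both samples, so the unstimulated state rests on the group label. The sources used here give neither the number and age of the animals, nor the copies of the reporter allele, nor any incubation of the unstimulated cells. A reporter sort selects cells by the activity of the Il23r gene, so all classes below are classes of receptor-reporter cells only. With 1 library per group no difference was tested, and every interval below is a 95% interval that covers counting error only.

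ILC3s are tissue-resident lymphocytes without rearranged antigen receptors that answer IL-23 with IL-22 and IL-17, and in the gut they guard the epithelial barrier. Their precursors switch on a shared set of factors: Nfil3 starts the program, Id2 blocks the E proteins that would drive B and T cell development, and Tox and Tcf7 follow. Rora, Gata3 and Runx3 then act together to hold the mature state. Maf acts later, in the balance between type 17 and type 1 functions, and Zeb2 is known from the terminal maturation of natural killer and CD8 T cells. NCR+ ILC3s, which carry the receptor NKp46 (Ncr1), can take up type 1 features under T-bet (Tbx21), whereas CCR6+ ILC3s resemble the lymphoid tissue inducer cells of the embryo. γδ and αβ T cells of the type 17 kind use many of the same factors.

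Cells with at least 500 detected genes and at most 10% mitochondrial unique molecular identifiers (UMIs) numbered 9251 of 10440 barcodes in the IL-23 library and 10790 of 11096 in the unstimulated library, with medians of 6087 and 4928 UMIs per cell. Ncr1+ cells (no UMI of Cd3e, Cd3d or Cd3g and at least 1 of Ncr1) numbered 1317 in the IL-23 and 1100 in the unstimulated library, and Ccr6+ cells (at least 1 UMI of Ccr6 in place of Ncr1) 1523 and 1583. CD3-negative cells with neither UMI numbered 5802 and 7440. γδ T cells (Cd3e with Trdc) numbered 234 and 255, and αβ T cells (Cd3e with Trac) 112 and 186. Cells in both innate gates (59 and 48) or both T cell gates (13 and 23) counted in both classes, and 29 barcodes occurred in both libraries. All 10 ILC3 marker genes examined reached 10 CPM (UMIs of a gene scaled to the UMI total of its class) in each class. The summed level of 13 T cell markers lay between 224 and 529 CPM in the CD3-negative classes of the IL-23 library and between 282 and 701 CPM in those of the unstimulated library, with the CD3 chains at 0 by the gate. The natural killer factor Eomes had at most 3 UMIs in any class, but other natural killer transcripts were present. The summed level of 6 natural killer and type 1 innate markers, Eomes and Ncr1 included, was 236 CPM in IL-23 and 222 CPM in unstimulated Ncr1+ cells. Ncr1 alone made up 183 and 216 CPM of these. The sum was 180.7 and 169.8 CPM in αβ T cells and 84.2 and 14.1 CPM in γδ T cells, with Ncr1 at most 3.78 CPM. It was below 84.2 CPM in Ccr6+ cells and in cells with neither UMI. The light chain transcript Igkc, a product of plasma cells, was uneven: it reached 2.91 CPM in IL-23 and 1516 CPM in unstimulated Ncr1+ cells, 1381 and 13.0 CPM in Ccr6+ cells, and 10.4 and 1047 CPM in cells with neither UMI. Cells carrying UMIs of other cell types were those with Cd79a, Jchain, Lyz2, C1qa, Epcam or Col3a1, so an Igkc UMI alone removed no cell. With these cells left out, each of the 81 ratios of the 9 factors in 9 comparisons moved by less than its counting interval.

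Levels are given in CPM, with exact Poisson intervals in parentheses. A ratio is the log2 of IL-23 CPM over unstimulated CPM, after adding 0.5 UMI to either sum, and a size of at least 1.5-fold was counted as a size, not as a test. The median log2 ratio of all measured genes (at least 10 CPM in 1 of the sums and 20 UMIs over both) was -0.12 in Ncr1+ cells, -0.12 in Ccr6+ cells, -0.11 in cells with neither UMI, -0.07 in γδ T cells and -0.09 in αβ T cells. For the 9 factors the medians were -0.14, -0.18, -0.18, -0.04 and 0.06 in the same classes. TMM scaling, which centres the bulk of genes, raised every ratio by 0.13 in Ncr1+ cells, 0.12 in Ccr6+ cells, 0.095 in cells with neither UMI, 0.076 in γδ T cells and 0.084 in αβ T cells. A ratio is thus read against these medians rather than against 0.

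**Figure D1:**
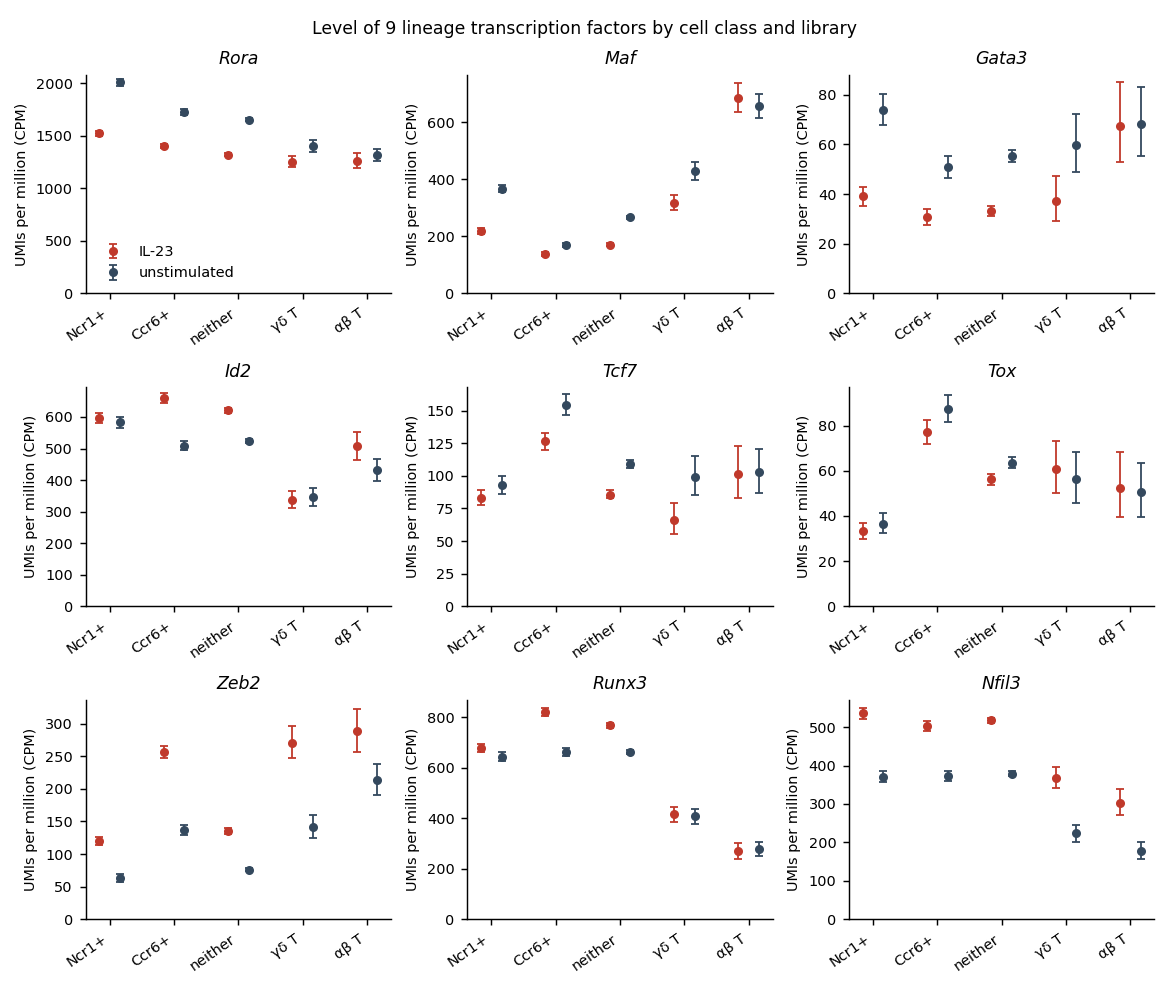
Level of each of the 9 factors (CPM, vertical axes starting at 0) in the 5 cell classes, with the IL-23 library left (red) and the unstimulated library right (blue); points are class sums and bars exact Poisson 95% intervals. Zeb2 and Nfil3 stood higher in the IL-23 library in all 5 classes, whereas Gata3 stood lower in 4 of them and differed by less than its counting error in αβ T cells.

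The comparison of the IL-23 with the unstimulated library asks which of these factors differ 2 hours after the cytokine. Zeb2 was the factor that stood higher by the widest margin in the CD3-negative and γδ classes. Gata3 and Maf stood lower in the CD3-negative cells. Counted by size, 1 factor was at least 1.5-fold higher (Zeb2) and 2 at least 1.5-fold lower (Maf and Gata3) in Ncr1+ cells, where 5.05% of 6910 measured genes were higher and 6.95% lower by that size (6.77% and 4.04% under TMM scaling). In Ccr6+ cells 1 factor was higher (Zeb2) and 1 lower (Gata3), against 2.86% and 4.28% of 7102 measured genes (4.03% and 2.30% under TMM). In cells with neither UMI 1 was higher (Zeb2) and 2 lower (Maf and Gata3), against 4.09% and 3.89% of 6967 genes (4.85% and 2.53% under TMM). In γδ T cells 2 were higher (Zeb2 and Nfil3) and 1 lower (Gata3), against 7.14% and 10.7% of 7468 genes (9.07% and 8.09% under TMM). In αβ T cells 1 was higher (Nfil3) and 0 lower, against 7.19% and 12.3% of 7593 genes (9.06% and 9.48% under TMM). The remaining factors stayed within 1.5-fold. With TMM scaling applied to the factors as well, 2 were higher in Ncr1+ cells, Nfil3 beside Zeb2. Only 1 was then lower in cells with neither UMI (Gata3), and the other counts stayed the same.

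**Figure D2:**
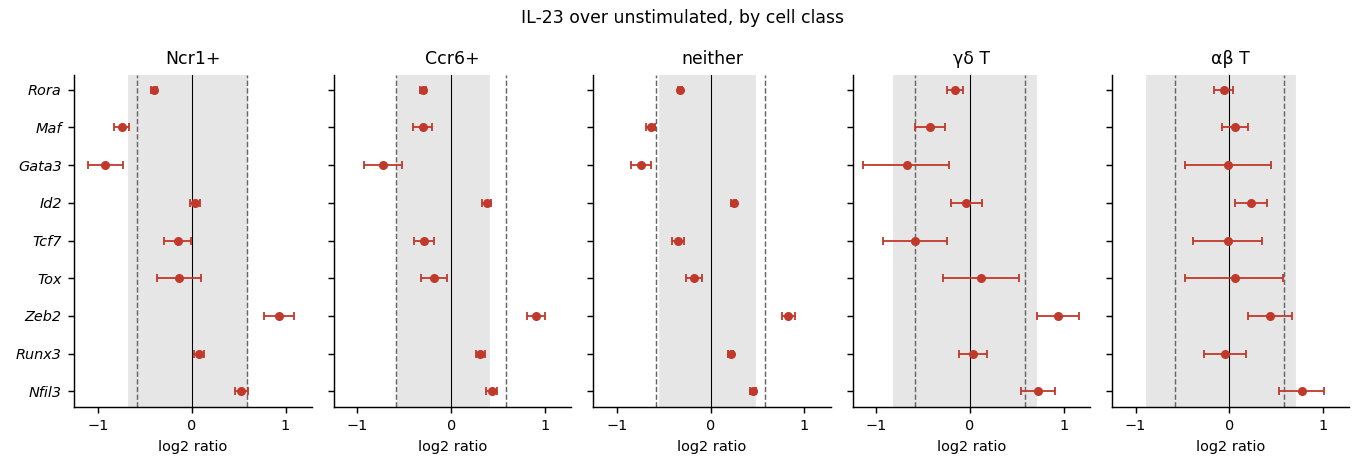
Log2 ratio of the IL-23 over the unstimulated library for each factor in the 5 cell classes; points are ratios, bars 95% counting intervals, dashed lines mark 1.5-fold and the grey band holds the central 90% of measured genes of the class. Zeb2 lay right of the band in the first 4 classes, at 0.93, 0.91, 0.83 and 0.94, while Gata3 lay left of it in the 3 CD3-negative classes, at -0.92, -0.73 and -0.74.

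Of the factors that act first, Nfil3, a basic leucine zipper repressor that opens the innate lymphoid program and also ties it to the circadian clock, stood higher in the IL-23 library throughout. Nfil3 (GRCm38 chr13:52967209-52981073, minus strand) was at 536 CPM (522 to 550.1) in IL-23 and 371 CPM (358 to 386) in unstimulated Ncr1+ cells, at 503 and 373 CPM in Ccr6+ cells and at 517 and 378 CPM in cells with neither UMI. γδ T cells held 368 CPM (341 to 397) in the IL-23 and 223 CPM (202 to 246) in the unstimulated library, and αβ T cells 302 CPM (270.1 to 338) and 177 CPM (156 to 200.2). The intervals of the libraries were apart in each class, and the log2 ratio was larger in the T cell classes (0.72 and 0.77) than in the CD3-negative ones (0.43 to 0.53), with counting intervals that overlapped between the T cell classes and Ncr1+ cells. The order of the classes was alike in both libraries, with the CD3-negative classes above γδ T cells and these above αβ T cells, while unstimulated Ncr1+, Ccr6+ and neither cells did not differ beyond counting error.

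Id2, a helix-loop-helix protein without a DNA-binding region that captures E proteins, differed between the libraries by at most 1.30-fold in CPM. That widest difference, in Ccr6+ cells, was a log2 ratio of 0.38, with 94.7% of measured genes below it, and 0.50 under TMM scaling. Id2 (chr12:25093799-25097140, minus strand) was at 660.4 CPM (646 to 675) in IL-23 and 508 CPM (494 to 523) in unstimulated Ccr6+ cells, and at 621 and 524 CPM in cells with neither UMI. It was at 597 CPM (582 to 612) in IL-23 and 583 CPM (565 to 601) in unstimulated Ncr1+ cells, where the intervals overlapped. γδ T cells held the lowest level of Id2 in both libraries, 337 CPM (311 to 364) in the IL-23 and 346 CPM (319 to 374) in the unstimulated one, below αβ T cells at 507 and 431 CPM.

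Tox, a high mobility group protein needed by innate lymphoid precursors and lymphoid tissue inducer cells, stood higher in Ccr6+ than in Ncr1+ cells and differed little between the libraries. Tox (chr4:6686353-6991557, minus strand) was at 33.3 CPM (29.9 to 36.9) in IL-23 and 36.5 CPM (32.3 to 41.2) in unstimulated Ncr1+ cells, and at 77.0 CPM (72.0 to 82.2) and 87.5 CPM (81.6 to 93.7) in Ccr6+ cells. Its log2 ratios lay between -0.18 and 0.12 in the 5 classes. γδ T cells (61.0 and 56.2 CPM), αβ T cells (52.3 and 50.5 CPM) and cells with neither UMI (56.2 and 63.6 CPM) lay between the innate extremes, and the T cell classes could not be told apart within counting error.

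Tcf7, which encodes TCF-1, the nuclear partner of β-catenin in precursors of T and innate lymphoid cells, also stood highest in Ccr6+ cells. Tcf7 (chr11:52252371-52283014, minus strand) was at 127 CPM (120.1 to 133) in IL-23 and 154 CPM (146 to 162) in unstimulated Ccr6+ cells, at 85.7 and 109 CPM in cells with neither UMI, and at 83.4 CPM (78.0 to 89.1) and 92.7 CPM (85.8 to 99.9) in Ncr1+ cells. γδ T cells held 66.4 CPM (55.2 to 79.2) in the IL-23 and 99.5 CPM (85.4 to 115) in the unstimulated library, from 123 and 177 UMIs. The γδ ratio of -0.58 lay just inside the 1.5-fold size, while in αβ T cells the levels were 102 and 103 CPM.

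Among the factors of the mature state, Rora, an orphan nuclear receptor, stood lower in the IL-23 library in the CD3-negative classes by less than 1.5-fold. Rora (chr9:68653786-69388246, plus strand) was at 1524 CPM (1501 to 1548) in IL-23 and 2009 CPM (1977 to 2042) in unstimulated Ncr1+ cells, at 1404 and 1726 CPM in Ccr6+ cells, and at 1320.4 and 1656 CPM in cells with neither UMI. IL-23 and unstimulated γδ T cells held 1256 CPM (1205 to 1308) and 1402 CPM (1348 to 1458) of Rora, and αβ T cells 1264 CPM (1197 to 1334) and 1317 CPM (1259 to 1378). Only the αβ intervals overlapped between the libraries. The highest class exceeded the lowest 1.21-fold in the IL-23 and 1.53-fold in the unstimulated library, the narrowest spread among the 9 factors in the IL-23 library.

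Gata3, a zinc finger factor best known from type 2 lymphocytes that ILC3s need at a low level, stood lower in the IL-23 library in 4 classes. Gata3 (chr2:9857078-9890034, minus strand) was at 39.0 CPM (35.3 to 43.0, 415 UMIs) in IL-23 and 73.9 CPM (67.8 to 80.4, 544 UMIs) in unstimulated Ncr1+ cells. Ccr6+ cells held 30.6 CPM (27.5 to 33.9) of it in the IL-23 and 50.7 CPM (46.3 to 55.4) in the unstimulated library. It was at 33.1 and 55.4 CPM in cells with neither UMI and at 37.2 CPM (29.0 to 47.1) and 59.6 CPM (48.8 to 72.1) in γδ T cells. In αβ T cells the levels were 67.5 CPM (52.7 to 85.2) and 68.2 CPM (55.5 to 82.9). Ncr1+, Ccr6+ and neither cells thus held less Gata3 in the IL-23 library, and its ratio had only 1.88%, 2.04% and 1.89% of measured genes below it in these classes; the γδ value rests on 69 and 106 UMIs and turned to 0.24 when cells were first thinned to 2000 UMIs.

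Runx3, which pairs with CBFβ to bind DNA and is needed by ILC3s, separated innate from T cells more than it separated the libraries. Runx3 (chr4:135120652-135177990, plus strand) was at 821 CPM (805 to 838) in IL-23 and 662 CPM (646 to 679) in unstimulated Ccr6+ cells, at 768 and 662 CPM in cells with neither UMI, and at 679 CPM (663 to 694) and 644 CPM (626 to 662) in Ncr1+ cells. The T cell classes held less: γδ T cells 415 CPM (386 to 445) in the IL-23 and 407 CPM (378 to 438) in the unstimulated library, and αβ T cells 270.1 CPM (239.6 to 303) and 278 CPM (252 to 307). The libraries overlapped in both T cell classes, and αβ T cells lay lowest in each library.

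Of the factors of late function, Maf, a basic leucine zipper protein that restrains the type 1 conversion of NCR+ ILC3s and supports IL-10 in T cells, showed the widest spread across classes. Maf (chr8:115682942-115707794, minus strand) was at 219 CPM (210.3 to 228) in IL-23 and 368 CPM (354 to 382) in unstimulated Ncr1+ cells, at 138 CPM (131 to 145) and 170.0 CPM (162 to 179) in Ccr6+ cells, and at 172 and 268 CPM in cells with neither UMI. Maf reached 319 CPM (294 to 346) in IL-23 and 429 CPM (399 to 460.5) in unstimulated γδ T cells, and in αβ T cells 686 CPM (637 to 738) and 658 CPM (617 to 701). The libraries were apart in 4 classes and overlapped in αβ T cells, where Maf stood 4.98-fold above Ccr6+ cells in the IL-23 and 3.87-fold in the unstimulated library. The ratio in cells with neither UMI, -0.64, was -0.55 under TMM scaling, which is inside the 1.5-fold size.

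Zeb2, a zinc finger repressor that binds E-box sequences and acts with T-bet in the terminal maturation of natural killer and CD8 T cells, stood higher in the IL-23 library in all 5 classes. Zeb2 (chr2:44983632-45117395, minus strand) was at 119.6 CPM (113 to 126) in IL-23 and 62.8 CPM (57.2 to 68.8) in unstimulated Ncr1+ cells, at 256 CPM (247 to 266) and 137 CPM (129 to 144) in Ccr6+ cells, and at 135 and 76.1 CPM in cells with neither UMI. Zeb2 reached 271 CPM (248 to 296) in IL-23 and 141 CPM (124 to 159.7) in unstimulated γδ T cells, and in αβ T cells 288 CPM (257 to 323) and 213 CPM (190.4 to 238). The intervals were apart in each class, and the ratios of 0.83 to 0.94 in 4 classes remained past 1.5-fold under each of 9 alternative settings, while that in αβ T cells was 0.43. Ncr1+ cells held the lowest level in both libraries, while Ccr6+, γδ and αβ T cells of the IL-23 library overlapped in their intervals; in the unstimulated library αβ T cells lay above the other classes.

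The share of cells with a UMI of these factors also differed between the libraries. Because the IL-23 library was deeper, each cell was thinned to 2000 UMIs, and cells with fewer (342 and 410 of the kept cells) were left out. A Zeb2 UMI was then found in 16.3% of IL-23 and 9.06% of unstimulated Ncr1+ cells (34.9% and 19.7% unthinned), in 33.6% and 21.9% of Ccr6+ cells (58.6% and 39.6%) and in 29.9% and 18.8% of γδ T cells (46.6% and 36.5%). A Maf UMI was found in 28.8% and 44.0% of Ncr1+ cells (65.1% and 72.1% unthinned), in 23.7% and 31.7% of cells with neither UMI (45.9% and 51.3%) and in 39.0% and 55.7% of γδ T cells (74.8% and 83.5%). In these classes both genes thus differed in the number of cells with a UMI, and not only in the UMIs of a few cells. The Zeb2 intervals just overlapped in γδ T cells, however. In αβ T cells the thinned shares were 31.5% and 23.5% for Zeb2 and 54.1% and 52.5% for Maf, with overlapping intervals. In Ccr6+ cells the thinned Maf shares were 18.3% and 23.7%, but the unthinned ones 47.2% and 43.5%. An Nfil3 UMI was found in 65.7% and 48.9% of Ncr1+ cells (93.8% and 81.2%) and in 44.1% and 22.4% of αβ T cells (79.5% and 52.7%), and a Gata3 UMI in 6.36% and 11.3% of Ncr1+ cells (18.8% and 28.1%). For Gata3 in γδ T cells the thinned shares, 8.66% and 8.63%, did not follow the CPM, and no order is read from them. B-lineage cells, which should lack Maf and Gata3, had these UMIs in 0% of cells after thinning, but numbered only 7 and 15 (medians 7210 and 10497 UMIs), all of them also counted in the 5 classes. An Nfil3 UMI was found in 2 of the 7 and 2 of the 15 thinned B-lineage cells, with exact binomial intervals of 3.67% to 71.0% and 1.66% to 40.5%, so no order against the classes is read from them.

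**Figure D3:**
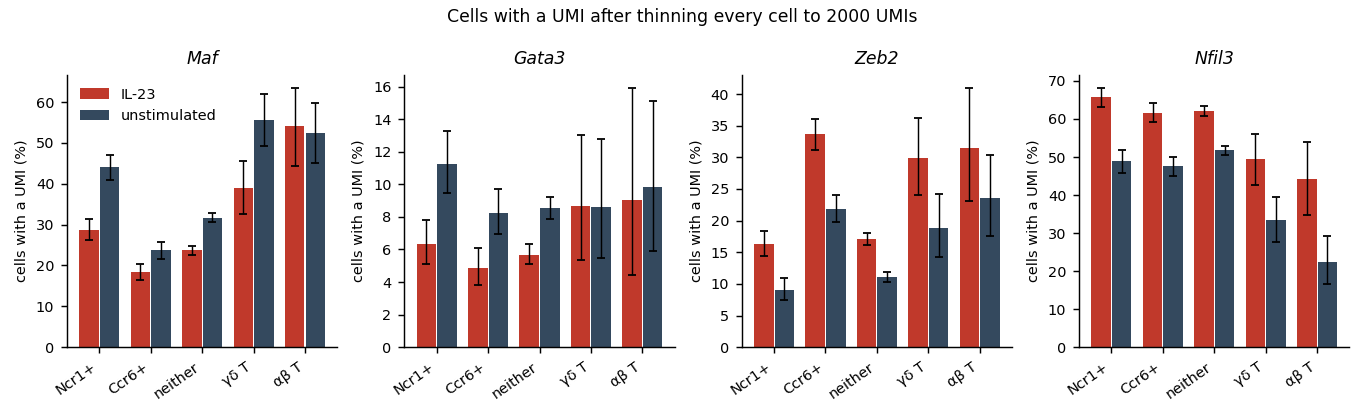
Share of cells with at least 1 UMI of Maf, Gata3, Zeb2 and Nfil3 (percent, vertical axes starting at 0) in the 5 cell classes after thinning every cell to 2000 UMIs; bars are the IL-23 (red, left) and unstimulated (blue, right) libraries and whiskers exact binomial 95% intervals. The Zeb2 share was 33.6% in IL-23 and 21.9% in unstimulated Ccr6+ cells, and the Maf share 28.8% and 44.0% in Ncr1+ cells.

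The next comparison sets Ncr1+ against Ccr6+ cells within each library and asks which factors mark the NCR+ or the lymphoid tissue inducer-like side. Maf was the factor at least 1.5-fold higher in Ncr1+ cells in both libraries, and Tcf7, Tox and Zeb2 were the 3 at least 1.5-fold lower. In the IL-23 library 1 factor was higher and 3 lower, against 8.73% and 11.2% of 7036 measured genes (11.3% and 7.77% under TMM scaling). In the unstimulated library the counts were also 1 and 3, against 8.83% and 12.4% of 7260 genes (11.4% and 9.49% under TMM). With TMM scaling applied to the factors as well, the IL-23 counts were 1 and 2, without Tcf7. The unstimulated counts were then 2 and 3, with Gata3 added on the higher side. The log2 ratio of Ncr1+ over Ccr6+ cells was 0.67 for Maf in the IL-23 and 1.11 in the unstimulated library. It was -1.21 and -1.26 for Tox, -1.10 and -1.12 for Zeb2, and -0.60 and -0.74 for Tcf7, of which the IL-23 value of Tcf7 fell inside the 1.5-fold size under 4 of 9 alternative settings. Gata3 leaned to the Ncr1+ side at 0.35 and 0.54, and Rora at 0.12 and 0.22. Id2 lay on opposite sides, at -0.15 (-0.19 to -0.10) in the IL-23 and 0.20 (0.14 to 0.26) in the unstimulated library, and at -0.03 and 0.30 under TMM scaling.

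In γδ against αβ T cells, Maf was the factor at least 1.5-fold lower in γδ T cells of both libraries. In the IL-23 library 1 factor was higher in γδ T cells (Runx3) and 4 lower (Maf, Gata3, Id2 and Tcf7), against 10.4% and 11.6% of 7461 measured genes. In the unstimulated library 0 were higher and 2 lower (Maf and Zeb2), against 8.2% and 10.9% of 7682 genes. The ratio of γδ over αβ T cells was -1.10 for Maf in the IL-23 and -0.62 in the unstimulated library, and 0.62 and 0.55 for Runx3. For Zeb2 it was -0.09 and -0.60, and for Gata3 -0.86 (-1.36 to -0.36) and -0.20 (-0.60 to 0.21). These classes were small, and of the 9 alternative settings of cells and scaling, Id2 in the IL-23 library (-0.59) was inside the 1.5-fold size under 5, Gata3 and Tcf7 under 2 each, and in the unstimulated library Zeb2 under 2 and Maf under 1. With cells holding UMIs of other cell types left out, 1 factor in place of 4 was lower in γδ T cells of the IL-23 library, against 11.5% of measured genes.

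**Figure D4:**
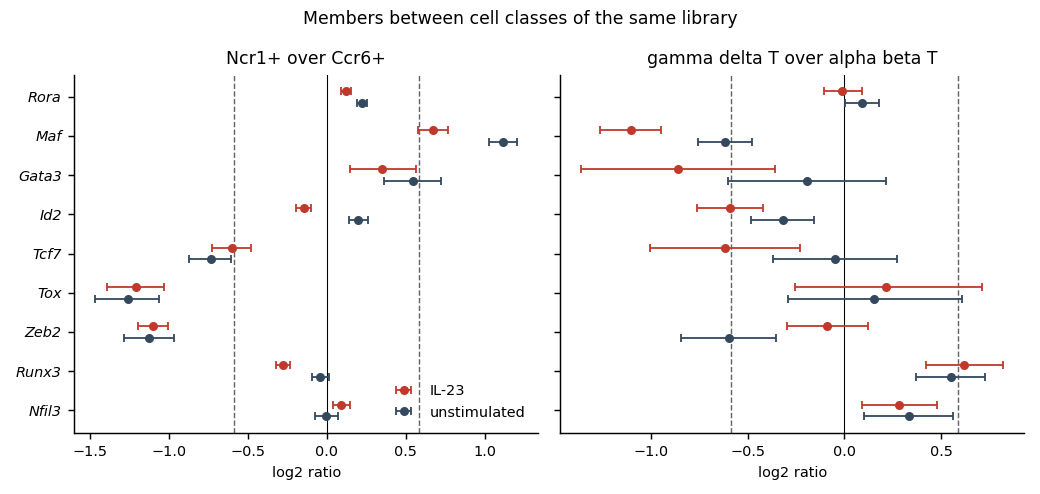
Log2 ratio between cell classes of the same library for each factor, Ncr1+ over Ccr6+ cells (left panel) and γδ over αβ T cells (right panel), with the IL-23 library in red above the unstimulated library in blue; bars are 95% counting intervals and dashed lines mark 1.5-fold. Tox and Zeb2 lay beyond -1 in Ncr1+ over Ccr6+ cells of both libraries, and Maf was higher in Ncr1+ cells but lower in γδ T cells.

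Inside the classes, the factors were split by a further transcript. Ncr1+ cells with a Tbx21 UMI, whose product is the factor of type 1 lymphocytes, numbered 151 of 1317 in the IL-23 and 135 of 1100 in the unstimulated library. Gata3 was at 61.2 CPM (49.0 to 75.5) in Tbx21+ and 35.6 CPM (31.8 to 39.7) in Tbx21- cells of the IL-23 library, and at 112 CPM (93.1 to 134) and 67.4 CPM (61.1 to 74.1) in the unstimulated library. Zeb2 was at 65.5 CPM (52.8 to 80.2) in Tbx21+ and 128 CPM (121 to 135) in Tbx21- cells of the IL-23 library, and at 32.8 CPM (22.8 to 45.6) and 67.9 CPM (61.6 to 74.6) in the unstimulated library. Within Ncr1+ cells of both libraries Gata3 was thus higher, and Zeb2 lower, where a Tbx21 UMI was found; the Zeb2 ratio of -0.96 in the IL-23 library turned to 0.11 when cells were first thinned to 2000 UMIs and the gates applied afterwards, which left 481 Ncr1+ cells. Id2 was also higher with Tbx21, at 776 against 569 CPM in the IL-23 and 857 against 536 CPM in the unstimulated library. Cells with a Tbx21 UMI were deeper (medians of 8509 against 7236 UMIs in the IL-23 and 6726 against 5898 in the unstimulated library). Of the 72 ratios in these and the following splits (9 factors, 4 split genes, 2 libraries), 27 stayed within their counting interval when cells were thinned before gating, 42 moved by more and 3 turned.

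γδ T cells with a UMI of Trdv4, a variable segment of the δ chain, numbered 136 of 234 in the IL-23 and 167 of 255 in the unstimulated library. Zeb2 was at 353 CPM (318 to 390) in Trdv4+ and 154 CPM (128 to 185) in Trdv4- γδ T cells of the IL-23 library, and at 172 CPM (149 to 197) and 80.2 CPM (59.1 to 106) in the unstimulated library. It was the factor past 1.5-fold in this split in both libraries, at log2 ratios of 1.19 and 1.09 (0.02 and 0.84 with thinning), while Gata3 was lower in Trdv4+ cells at -0.47 and -0.87, the second of which turned to 0.25 with thinning. The IL-23 over unstimulated ratio of Zeb2 was alike in both kinds of γδ T cells, 1.03 in Trdv4+ and 0.94 in Trdv4- cells. In Ccr6+ cells, a UMI of Cd4 (258 of 1523 and 230 of 1583 cells) or of the MHC class II gene H2-Ab1 (567 and 554 cells) split no factor by 1.5-fold. Zeb2 was the factor that leaned most to the H2-Ab1+ side, at 0.39 in both libraries, and Tox leaned to the H2-Ab1- side, at -0.21 and -0.47.

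**Figure D5:**
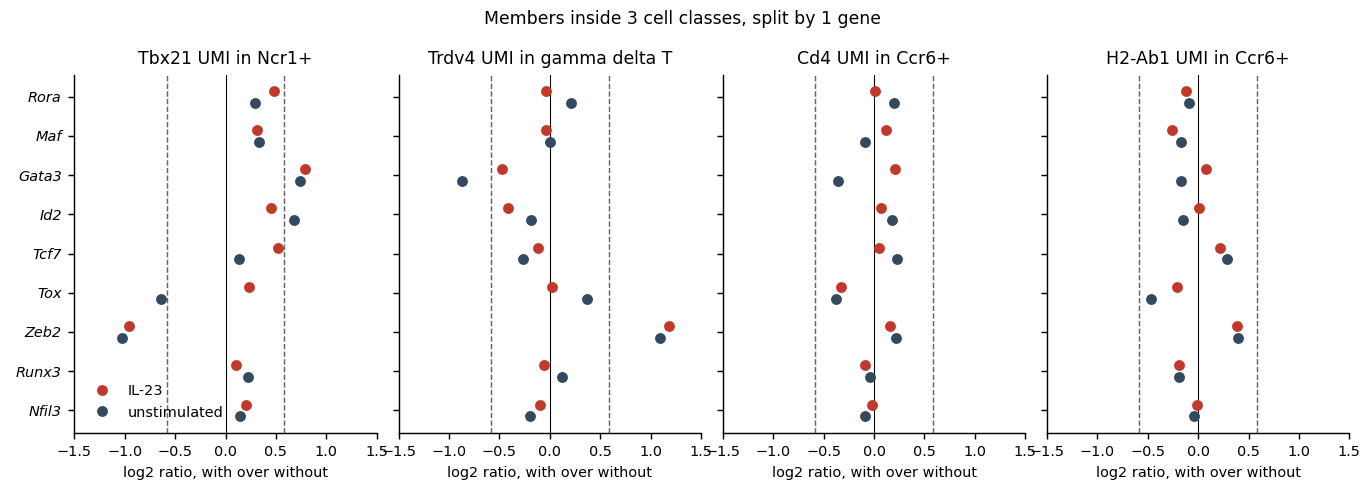
Log2 ratio of cells with over cells without a UMI of Tbx21 in Ncr1+ cells, of Trdv4 in γδ T cells, and of Cd4 and H2-Ab1 in Ccr6+ cells, for each factor, with the IL-23 library in red above the unstimulated library in blue and dashed lines at 1.5-fold. Zeb2 lay at -0.96 and -1.03 in the Tbx21 split and at 1.19 and 1.09 in the Trdv4 split, while both Ccr6+ splits stayed inside the dashed lines.

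Promoter windows are shown for Zeb2 and Nfil3, which stood higher in the IL-23 library in each class, and for Gata3, which stood lower in the CD3-negative classes. Windows of 300 bases, 250 before to 50 after an annotated start, were taken from RefSeq on GRCm38.p6, which gave 12 windows for 7 of the 9 factors; Maf and Tox had no entry. The 6 motifs spelled out after the windows were searched on both strands, and no match overlapped another in these windows. Capitals mark a match, the Zeb2 window was chosen among 4 because it holds one, and all 3 are read 5′ to 3′ on the minus strand, at chr2:45113230-45113529 for Zeb2, chr13:52980990-52981289 for Nfil3 and chr2:9878551-9878850 for Gata3.
Zeb2: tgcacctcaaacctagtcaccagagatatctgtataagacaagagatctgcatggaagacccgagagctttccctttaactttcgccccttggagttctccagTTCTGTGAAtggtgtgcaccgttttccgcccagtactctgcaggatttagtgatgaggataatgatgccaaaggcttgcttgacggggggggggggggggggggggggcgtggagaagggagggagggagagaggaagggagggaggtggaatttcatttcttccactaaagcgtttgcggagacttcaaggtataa
Nfil3: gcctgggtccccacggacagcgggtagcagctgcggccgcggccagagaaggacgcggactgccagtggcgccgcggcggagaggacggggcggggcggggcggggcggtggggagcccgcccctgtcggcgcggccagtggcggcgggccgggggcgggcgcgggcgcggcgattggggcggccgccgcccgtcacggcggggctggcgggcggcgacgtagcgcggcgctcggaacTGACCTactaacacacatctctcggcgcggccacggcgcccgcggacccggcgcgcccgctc
Gata3: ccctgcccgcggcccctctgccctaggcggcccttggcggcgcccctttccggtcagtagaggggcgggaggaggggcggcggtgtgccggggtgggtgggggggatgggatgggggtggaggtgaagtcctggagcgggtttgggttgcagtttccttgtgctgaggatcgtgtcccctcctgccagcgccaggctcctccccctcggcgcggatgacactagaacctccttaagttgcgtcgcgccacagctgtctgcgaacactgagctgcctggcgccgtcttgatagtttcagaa
The STAT motif TTCNNNGAA stood in 2 overlapping windows of Zeb2 and in 8.298% of all 32851 promoter windows. The ROR motif AGGTCA, here as its reverse complement, stood in the Nfil3 window and 1 Tcf7 window and in 16.26% of all windows. The Gata3 window held none of the 6 motifs. The RUNX motif ACCACA, found in 16.76% of all windows, stood in 1 Runx3 window. The E-box CACCTG, found in 20.21% of all windows, stood in 1 window each of Runx3 and Tcf7. The GATA motif AGATAA is held by 11.18% of all windows and the TCF motif CTTTGA by 16%, and both stood in 0 of the 12 windows of the factors. A match describes these letters and is no evidence of binding.

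A list of 60 partner genes, made of other lineage factors, dimer partners and cofactors, places the 9 factors in their setting. It was chosen with earlier results of these data known, so its counts are descriptions only. Of the measured partners, 8 of 44 were at least 1.5-fold higher and 7 lower in the IL-23 library in Ncr1+ cells, where 5.05% and 6.95% of all measured genes were. In Ccr6+ cells 7 and 2 of 43 were (2.86% and 4.28% of all), in cells with neither UMI 9 and 3 of 44 (4.09% and 3.89%), in γδ T cells 9 and 4 of 40 (7.14% and 10.7%), and in αβ T cells 10 and 5 of 43 (7.19% and 12.3%). The partners' median log2 ratios were 0.04, -0.01, 0.08, 0.02 and -0.04 in these classes, beside -0.12, -0.12, -0.11, -0.07 and -0.09 for all measured genes. Higher in all 5 classes were Batf, Prdm1, Ahr, Ikzf4 and Notch1. Batf, an AP-1 factor of type 17 cells, was at 593 CPM in IL-23 and 25.3 CPM in unstimulated Ncr1+ cells. Prdm1, which encodes the repressor Blimp-1, was at 104 CPM in IL-23 and 16.9 CPM in unstimulated γδ T cells. Ahr, whose product senses dietary and microbial ligands in ILC3s, was at 158 and 45.9 CPM in Ncr1+ cells. The Batf and Ahr margins were wider than that of any of the 9 factors in Ncr1+ cells.

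Ikzf1, which encodes Ikaros, was at least 1.5-fold higher in the IL-23 library in each class but Ccr6+ cells, and its αβ ratio turned to -0.64 with thinning. Others passed it in 1 or 2 classes: Ikzf2 in Ncr1+ and neither cells, Irf4 and Mafk in both T cell classes, Stat3 and Tox2 in Ccr6+ cells, Satb1 in αβ T cells and Id3, a relative of Id2, in cells with neither UMI. Irf4 was at 180 CPM in IL-23 and 11.8 CPM in unstimulated γδ T cells but was not measured in the CD3-negative classes, at no more than 8.08 CPM. Zeb1, the paralog of Zeb2, was at 713 and 511 CPM in Ncr1+ cells and stayed within 1.5-fold in each class, as did Runx1 and Tcf12, which encodes an E protein of the kind that Id2 captures.

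Lower by that size in the IL-23 library were Hhex and Nr1d1 in Ncr1+ and neither cells, Tef in these and in γδ T cells, Zbtb46 in Ncr1+ and Ccr6+ cells, and Dbp, Foxo1 and Id3 in Ncr1+ cells. The Id3 direction rests on 1 unstimulated cell with 63 of 78 UMIs: its ratio of -1.90 turned to 0.48 with cells over 3 median UMIs left out and to 0.85 with gates at 2 UMIs. Nr1d1, a nuclear receptor of the circadian clock, was at 45.1 CPM in IL-23 and 91.2 CPM in unstimulated Ncr1+ cells. Dbp and Tef, which bind the same sites as Nfil3 in the clock, were near the lower limit of measurement, at 5.17 and 11.5 CPM for Dbp and 7.43 and 11.4 CPM for Tef in Ncr1+ cells. Rara was lower in Ccr6+ and αβ T cells, Gfi1 and Hlf in γδ T cells, Lef1 in both T cell classes, and Cbfb, Tcf4 and Zbtb7b in αβ T cells. Most partner values of the αβ class rest on few UMIs, and several did not keep their direction. With thinning the αβ ratio turned for Lef1 (-0.86, then 3.89), Tcf4 (-1.34, then 1.08), Rara (-1.20, then 0.34) and, on the higher side, Mafk (0.66, then -0.50), and the Zbtb7b ratio was 0.0094 by the mean of cells. In unstimulated αβ T cells, 11 of the 33 Tcf4 UMIs came from 1 cell.

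Between Ncr1+ and Ccr6+ cells, 11 partners were at least 1.5-fold higher and 6 lower of 44 measured in the IL-23 library (8.73% and 11.2% of all measured genes), and 12 and 9 of 47 in the unstimulated library (8.83% and 12.4%). The highest log2 ratios in the IL-23 library were those of Tbx21 (3.36), Prdm1 (2.15), Ikzf3 (1.87), Ikzf2 (1.84) and Bcl11b (1.82), and the lowest those of Sox4 (-3.24), Tox2 (-2.74), Batf3 (-2.55), Zbtb46 (-2.02) and Rara (-1.26). In the unstimulated library the highest were Tbx21 (3.09), Prdm1 (2.58), Id3 (2.52), Ikzf3 (2.03) and Ikzf2 (1.72), and the lowest Batf3 (-3.44), Sox4 (-3.40), Tox2 (-2.17), Zbtb46 (-1.92) and Rara (-1.62). The Id3 value rests on the same unstimulated cell and was 0.26 with cells over 3 median UMIs left out. Tox2, the paralog of Tox, was at 14.7 CPM in Ncr1+ and 98.5 CPM in Ccr6+ cells of the IL-23 library, on the same side as Tox. Of measured partners, 8 were higher and 4 lower of 40 in γδ over αβ T cells of the IL-23 library (10.4% and 11.6% of all measured genes), and 5 and 7 of 43 in the unstimulated library (8.2% and 10.9%).

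The genes whose levels followed each factor most closely over the 10 class sums (5 classes in 2 libraries, 3965 genes with at least 50 CPM in 1 of them) are given as descriptions, since the sums share libraries and some cells. For Zeb2 they were Gm16286 (Pearson r = 0.97), Pik3cd (0.96), a subunit of phosphoinositide 3-kinase, and Znrf1 (0.96). For Nfil3 they were Ncoa7 (0.97), the bZIP factor gene Cebpd (0.97) and Ube2d3 (0.96), and for Runx3 Cebpb (0.99), Calr (0.99) and Ginm1 (0.99). For Gata3 they were Tnfaip3 (0.96), the gene of the NF-κB inhibitor A20, and Hivep2 (0.95), and for Maf H2-T22 (0.98), Stim1 (0.98) and Gimap7 (0.97). For Tcf7 they were Tnfsf11 (0.96), the gene of the cytokine RANKL, Usp16 (0.95) and Reep3 (0.95). For Rora they were Tob2 (0.96) and Csnk1a1 (0.95), for Id2 Ptms (0.95), Hist1h4d (0.95) and Hspa8 (0.94), and for Tox Ufl1 (0.96), Fkbp2 (0.93) and Pdrg1 (0.92). Among the 9 factors themselves, Maf ran opposite to Runx3 (r = -0.92) and Nfil3 (-0.81), and Rora opposite to Zeb2 (-0.85). Runx3 ran together with Nfil3 (0.82), and Maf with Gata3 (0.79).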

How the data were processed

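The deposited files hold whole-number UMI counts per gene and barcode with no normalization by the authors. Reads were processed on mm10 with Cell Ranger 3.1.0, per the submitters' processing notes, while the matrix headers name cellranger 6.0.0, and nothing settles which made the counts. No source used here names the annotation or the cell-calling rule. Barcodes under 500 genes or over 10% mitochondrial UMIs were left out, and cells were gated by transcripts as described, without clustering. No doublet caller was run, and leaving out cells over 3 times the median UMIs of their library was an alternative. UMIs were summed by class and library and scaled to CPM. Sums carry exact Poisson, ratios and shares exact binomial (Clopper-Pearson) intervals at 95%. Thinning drew 2000 UMIs per cell without replacement (seed 11). TMM factors came from edgeR 4.0.16 in R 4.3.3, and the rest was done in Python 3.11.15 with numpy 2.4.6, scipy 1.17.1 and pandas 2.3.3, with the ratios checked on simulated data. Positions came from the GENCODE annotation of GRCm38, matched by gene identifier. All 9 factors are named, as is each measured partner past 1.5-fold in an IL-23 comparison, the 5 highest and 5 lowest partners of Ncr1+ over Ccr6+ cells and the 3 nearest genes per factor; Zeb1, Runx1 and Tcf12 were added after their values were seen. Values of 3 other genes that these rules name are not reported here. The members and lists were chosen with earlier results of these data known. Alternatives changed the mitochondrial and gene limits, the gates, cells of 2 gates, cells with UMIs of other cell types, the UMI ceiling, the scaling, the weight of deep cells, the depth, the fold size and the minimum level.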

Additional observations from a re-analysis of the deposited data

Results flagged for a closer look

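Id3, a relative of Id2 that also captures E proteins, lay on opposite sides in 2 classes. Its IL-23 over unstimulated log2 ratio was 1.13 in CD3-negative cells with neither Ncr1 nor Ccr6 UMI and -1.90 in Ncr1+ cells. This difference was not tested. In cells with neither UMI there were 460 UMIs in 84 cells of the IL-23 library, of which 124 came from 1 cell, and 225 UMIs in 88 cells of the unstimulated library, of which 30.7% came from 1 cell. In Ncr1+ cells there were 30 UMIs in 21 cells of the IL-23 library and 78 UMIs in 15 cells of the unstimulated library, where 1 cell held 63 UMIs, or 80.8%. With cells over 3 median UMIs left out, the Ncr1+ ratio was 0.48, and the Id3 ratio of Ncr1+ over Ccr6+ cells in the unstimulated library was 0.26 in place of 2.52.

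Id2 lay on opposite sides between Ncr1+ and Ccr6+ cells in the 2 libraries, with a log2 ratio of -0.15 in the IL-23 and 0.20 in the unstimulated library. The medians of all measured genes were -0.07 and -0.08. Under TMM scaling the Id2 ratios were -0.03 and 0.30, so the IL-23 value lay close to 0 once the bulk of genes was centred. This difference was not tested either. The levels were 597 CPM in Ncr1+ and 660.4 CPM in Ccr6+ cells of the IL-23 library, and 583 and 508 CPM in the unstimulated library.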

How the results depend on the processing

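Of 81 ratios of the factors in 9 comparisons, 81 moved by less than their counting interval with 1000 genes per cell, with 5% mitochondrial UMIs, without cells of 2 gates and without cells holding UMIs of other cell types. With TMM scaling 31 moved by more, with gates at 2 UMIs 20, and with cells thinned before gating 41, where αβ T cells numbered only 26 and 55. Zeb2 in 4 classes, Gata3 and Maf in Ncr1+ cells and Nfil3 in both T cell classes stayed past 1.5-fold under all 9 alternatives of cells and scaling. Counts of factors past the size that moved by more than 1.5-fold, or to or from 0, are given next. In parentheses is the share of all measured genes past the same size in the same setting. Smaller moves are left out, such as 3 to 2 lower in Ncr1+ than Ccr6+ cells of the IL-23 library with TMM. At a smaller size, 0.32 on the log2 scale, 2 were higher in Ncr1+ (9.2%), 3 in Ccr6+ (6.31%), 2 in neither (7.36%) and 2 in αβ cells (15.4%). At that size 4 were lower in neither (16.6%) and 3 in γδ cells (24.8%). At 2-fold, 0 were higher (1.42% to 2.6%) or lower (0.493% to 3.77%) in any IL-23 comparison. In γδ over αβ T cells 1 was lower (4.46%) and 0 higher (4.17%) in the IL-23 library and 0 lower (4.27%) in the unstimulated one. Thinning gave 2 higher in Ncr1+ (8.14%), 3 higher and 1 lower in αβ (13.8% and 15.6% of only 1350 genes) and 0 lower in γδ cells (14.4%). TMM gave 2 higher in Ncr1+ (6.77%) and 1 lower in neither cells (2.53%), as did the mean of cells for the last (3.44%). In γδ cells 0 were lower with gates at 2 UMIs (12.8%) or the mean of cells (10.7%). There 2 were lower with 5% mitochondrial UMIs (10.6%) or cells over 3 medians left out (10.7%). In Ccr6+ cells 0 were lower with gates at 2 UMIs (8.21%). Between classes, 2 were higher in Ncr1+ than Ccr6+ cells with gates at 2 UMIs in the IL-23 (9.4%) and the unstimulated library (9.41%). The count was also 2 at the smaller size in both (16.6% and 17.1%). In the unstimulated library it was 2 with TMM (11.4%) or other cell types left out (8.93%) as well. At 2-fold 0 were higher in the IL-23 library (4.02%). In γδ over αβ T cells, thinning gave 2 higher in the IL-23 (20.7%) and 1 lower in the unstimulated library (13.8%). Without other cell types 1 was lower in the IL-23 library (11.5%). In the unstimulated library 1 was higher without cells of 2 gates (10.4%), with gates at 2 UMIs (12.3%) or the mean of cells (9.02%). There 2 were higher at the smaller size (17.7%), and 1 was lower with TMM (9.91%) or without cells over 3 medians (10.2%). Signs turned for Id3 in Ncr1+ cells (0.85 with gates at 2 UMIs, 0.48 without cells over 3 medians) and, with thinning, for Gata3 in γδ cells (0.24), in αβ cells for Ikzf1 (-0.64), Lef1 (3.89), Mafk (-0.50), Rara (0.34) and Tcf4 (1.08), and inside classes for Zeb2 (0.11, Tbx21 split, IL-23), Tox (1.79, Tbx21 split, unstimulated) and Gata3 (0.25, Trdv4 split, unstimulated). Zbtb7b in αβ cells was 0.0094 by the mean of cells. Of 27 nearest genes, 22 remained with a minimum of 20 CPM. No paired analysis was possible because each group is 1 library. Depth limits Gata3 and Tox in the T cell classes, at 55 to 113 UMIs per sum.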

Other observations

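In single CD3-negative cells thinned to 2000 UMIs, transcripts of subset markers and cytokines differed with a UMI of some of the factors; the genes examined were chosen after the class values had been seen. Cells with a Zeb2 UMI (1640 of 8263 in the IL-23 and 1217 of 9681 in the unstimulated library) held more Ccr6 UMIs than cells without one, 83.5 against 36.2 CPM in the IL-23 and 84.2 against 39.6 CPM in the unstimulated library. They held less Tbx21, 4.27 against 9.59 CPM and 4.52 against 9.57 CPM, and less Ifng, 4.88 against 15.2 CPM in the IL-23 library. The Tbx21 values and the lower Ifng value lay under the 10 CPM asked of a measured gene and rest on few UMIs. All CD3-negative classes are pooled here, and Zeb2 and Tbx21 also differed between Ncr1+ and Ccr6+ cells. Il22 was close in both kinds of cells, at 26925 against 25294 CPM in the IL-23 and at 6187 against 5958 CPM in the unstimulated library. Cells with a Maf UMI leaned the other way, with Ccr6 at 34.1 against 49.1 CPM and Tbx21 at 13.9 against 6.89 CPM in the IL-23 library. Their Il7r level was 352 against 256 CPM in the IL-23 and 424 against 308 CPM in the unstimulated library. Cells with a Tox UMI held 18.0 against 33.4 CPM of Ncr1 in the IL-23 library, while Ccr6 was close, at 48.8 against 45.2 CPM. Cells of a library are not replicates, so these values are descriptions without a test.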
